A study of Arabidopsis thaliana with 24 samples.

Results

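The 53 genes described here are the nuclear genes of Arabidopsis thaliana for the photosystems, their antennae and the electron transport chain, out of 38088 genes in the table. They were chosen by gene identifier and name, by no rule on their values but with earlier results of these data known. The genes are all listed nuclear LHCA, LHCB, PSA and PSB genes, the Rieske protein gene PETC and both plastocyanin genes. Also included are ferredoxin 2 (FD2), the leaf ferredoxin-NADP reductases LFNR1 and LFNR2, and the plastid ATP synthase genes ATPC1 and ATPD. By role they comprise 6 genes of the photosystem I antenna, 9 of the major photosystem II antenna, 6 of the minor photosystem II antenna, 13 of photosystem I subunits, 6 of the oxygen-evolving complex, 5 of other photosystem II subunits, 6 of electron carriers and the cytochrome b6f complex, and 2 of the ATP synthase. All 53 passed the filter on low values, which kept 20964 genes (55.0%).

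RNA was taken from 5-day-old seedlings of wild-type Col-0 and of dcp5-1, a mutant of DCP5, whose protein belongs to the cytoplasmic machinery for messenger decapping and to processing bodies. Seedlings were rested for 30 min in liquid medium and then given 150 mM NaCl for either 0 min, here T0, or 15 min, here T15. Total RNA came from the input lysate and polysomal RNA from pooled polysome fractions of a sucrose gradient of 10% to 50%, followed by mRNA sequencing. The 2 genotypes, 2 times and 2 RNA fractions form 8 groups of 3 libraries, 24 in all. No group spent 15 min without NaCl, so a change from T0 to T15, called a NaCl change here, cannot be told apart from an effect of transfer or elapsed time. Both genotypes passed through the same medium and rest. The labels name the dcp5-1 allele without saying how many lines were used, and give its ecotype as a series running from Col-1 to Col-12. They do not say whether libraries of a group came from separate cultures, so the p-values measure the spread between these samples only, which may be technical. Libraries are called the first, the second and the third by the number in their column name, which marks no shared sample.

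Photosystems I and II are pigment-protein complexes of the thylakoid membrane that turn light into electron flow. The LHCA and LHCB proteins collect light for photosystem I and photosystem II. The oxygen-evolving complex splits water on the lumenal side, electrons pass through the cytochrome b6f complex, plastocyanin and ferredoxin to ferredoxin-NADP reductase, and the ATP synthase uses the proton gradient. Reaction-centre proteins are encoded in the chloroplast, whereas the genes here are transcribed in the nucleus, translated on cytosolic ribosomes and their products imported. They are among the most abundant messengers of green seedlings and are known to respond together to light, the clock and chloroplast signals.

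Values are FPKM as deposited, fragments scaled to transcript length and to a denominator for each library, so levels are per length. Ranks and shares between genes take these values as they stand, and how well levels compare between genes was not tested. The spacing of low values corresponds to between 17415550 and 18488706 fragments on nuclear genes per library, and to between 250 (LHCB4.3) and 336110 (LHCB1.3) fragments per member and library. It gives denominators of 14580000 to 19070000, which in many libraries are below the library's own nuclear fragments, so the deposited values carry a further scaling factor that the labels do not describe. In total RNA at T0 the denominators were 16800000, 14580000 and 15960000 in Col-0 and 17980000, 18410000 and 18210000 in dcp5-1, so the factor moves with genotype there and raises Col-0 values relative to nuclear fragments. Counts with each library scaled to its nuclear fragments are therefore given beside the main ones. DCP5 (AT1G26110) itself lay between 48.5 and 92.3 FPKM in the 12 Col-0 libraries and between 13 and 21.5 in the 12 dcp5-1 libraries. In the group of Col-0 total RNA at T0, the second library stands apart: most members are highest there, and its factor for scaling to nuclear fragments was 1.15, the highest of the 24 (range 0.894 to 1.15). Several counts that depend on that library are also given without it. Changes are differences of log2(FPKM + 1) with their standard error (SE) over the fit of all 24 libraries, and a gene is called higher, lower, risen or fallen where limma gave an adjusted p (Benjamini-Hochberg, over the 20964 genes) under 0.05.

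The members made up a large part of the nuclear RNA. In Col-0 at T0 they held 14.0%, 15.3% and 14.2% of nuclear fragments in the total RNA libraries and 16.3%, 15.9% and 15.6% in the polysomal libraries. In dcp5-1 at T0 the shares were 9.75%, 9.81% and 9.56% in total RNA and 10.7%, 10.5% and 10.6% in polysomal RNA. Every dcp5-1 library lay below every Col-0 library of the same fraction. At T15 the shares were 14.0%, 13.5% and 13.7% in Col-0 total RNA, 16.7%, 17.5% and 17.4% in Col-0 polysomal RNA, 10.6%, 10.9% and 11.3% in dcp5-1 total RNA and 12.1%, 12.2% and 12.3% in dcp5-1 polysomal RNA. The major photosystem II antenna alone, with 9 genes, held 3.59% ± 0.25 (SD, n = 3) of nuclear fragments in Col-0 total RNA at T0 and 6.21% ± 0.18 in polysomal RNA.

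**Figure D1:**
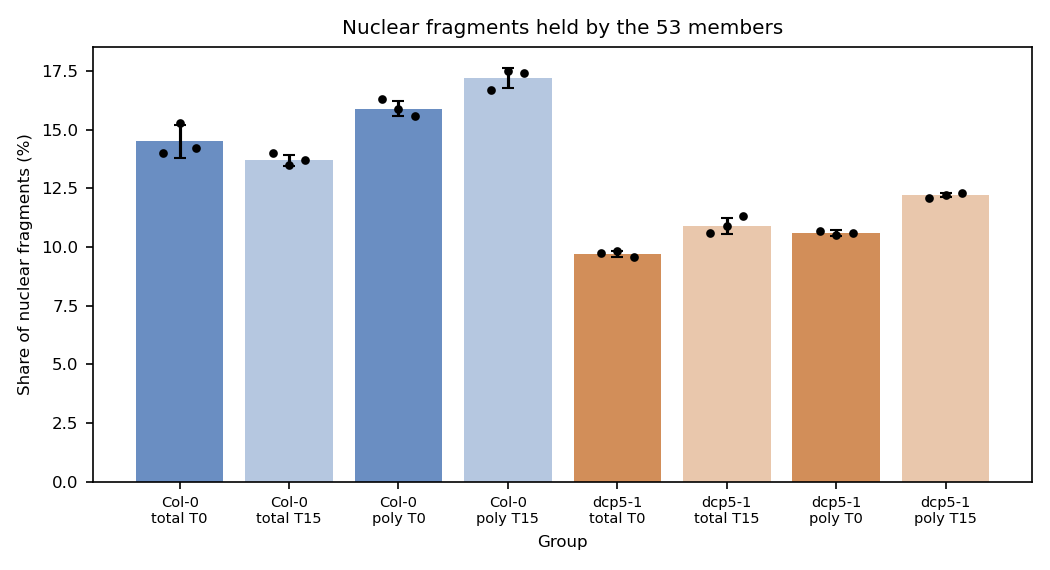
Share of nuclear fragments (%) held by the 53 genes in each of the 8 groups; bars are means of 3 libraries with SD, and points are single libraries. All dcp5-1 libraries lie between 9.56% and 12.3%, below the lowest Col-0 library at 13.5%.

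Averaged over the 24 libraries, PSBR, a small protein of the oxygen-evolving side of photosystem II, was highest at 13800 FPKM, followed by the antenna genes LHCB1.5 at 13000, LHCB1.3 at 11700 and LHCB1.1 at 6770. The lowest were LFNR2 at 132, LHCB7 at 30.0 and LHCB4.3, a rare isoform of the minor antenna protein CP29, at 22.0 FPKM. Of the summed LHCB1 FPKM in Col-0 total RNA at T0, LHCB1.5 held 40.4%, LHCB1.3 25.0%, LHCB1.1 22.1%, LHCB1.2 8.98% and LHCB1.4 3.52%. PETE2 held 88.0% of plastocyanin, LFNR1 81.0% of the LFNR pair, PSAH2 78.2% of PSAH, and PSBO1 74.3% of PSBO. The coding sequences of LHCB1.1, LHCB1.2 and LHCB1.3 share 95.6% to 96.4% of their bases, so reads may have been assigned to the wrong copy, and values for single LHCB1 copies are uncertain. Other copies within a family share at most 91.4% of alignment columns, where gaps count as differences. LHCB2.1 and LHCB2.2 have coding lengths of 954 and 798 nt and share 741 bases. Their identity is thus higher where both have sequence than over the whole alignment (77.7%), and reads of this pair may also be misassigned.

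The promoter windows below belong to members at both ends of the genotype comparison and to LHCA4, which is at neither end. LHCB2.3 and LHCB1.2 had the largest deficit in dcp5-1, and LFNR2 is the member that was higher in dcp5-1. LHCA4 is shown as the most abundant photosystem I antenna gene. Each window gives the 250 bases before the gene's start in RefSeq TAIR10.1, 5′ to 3′ on the gene's strand. Capitals mark matches, on either strand, to the G-box CACGTG, the I-box GATAAG, the evening element AAAATATCT or CCAATC. The last is longer than the CCAAT of a CCAAT box, and CCAAT without the final C was neither marked nor counted. The windows lie at chr3:10255656-10255905 on the plus strand, chr1:10473503-10473752 on the minus strand, chr3:17495034-17495283 on the minus strand and chr1:6942375-6942624 on the plus strand.
LHCB2.3: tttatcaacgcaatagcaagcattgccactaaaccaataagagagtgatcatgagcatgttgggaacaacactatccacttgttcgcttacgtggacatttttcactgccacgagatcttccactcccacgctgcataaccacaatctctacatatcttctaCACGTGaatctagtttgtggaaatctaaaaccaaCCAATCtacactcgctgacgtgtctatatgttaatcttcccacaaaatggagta
LHCB1.2: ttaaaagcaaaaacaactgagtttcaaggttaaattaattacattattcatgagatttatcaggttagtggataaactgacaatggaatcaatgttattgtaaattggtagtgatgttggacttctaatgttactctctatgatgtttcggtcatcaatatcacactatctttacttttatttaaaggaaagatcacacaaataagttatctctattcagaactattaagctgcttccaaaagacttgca
LHCA4: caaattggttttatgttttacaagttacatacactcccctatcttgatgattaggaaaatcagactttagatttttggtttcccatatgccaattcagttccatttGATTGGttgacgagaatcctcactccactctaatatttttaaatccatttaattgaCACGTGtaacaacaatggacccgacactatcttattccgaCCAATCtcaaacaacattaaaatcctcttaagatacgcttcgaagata
LFNR2: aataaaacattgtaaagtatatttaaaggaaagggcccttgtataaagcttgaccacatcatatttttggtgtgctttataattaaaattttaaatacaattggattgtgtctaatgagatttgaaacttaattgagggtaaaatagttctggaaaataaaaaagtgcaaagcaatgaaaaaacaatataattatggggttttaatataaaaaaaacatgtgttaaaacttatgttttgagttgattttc
LHCB2.3 and LHCA4 each hold a G-box and at least 1 CCAATC match, and LHCB1.2 and LFNR2 hold no marked match. The shorter CCAAT occurs on at least 1 strand of all the windows shown, those of LHCB1.2 and LFNR2 included. The G-box was found in 11 of 53 member windows (20.8%) against 6.49% of 27443 windows of the same length across the genome. CCAATC was found in 14 members (26.4%) against 10.2%, the I-box in 12 (22.6%) against 12.3%, and the evening element in 2 (3.77%) against 2.36%. None of these motifs is contained in another, and a match is a description of the window, not of a bound site. In total RNA at T0, the median change in dcp5-1 against Col-0 was -0.66 for the 11 members with a G-box and -0.74 for the 42 without, and -0.87 for the 14 with CCAATC against -0.68 for the 39 without.

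Before NaCl, almost all members were lower in dcp5-1 than in Col-0, and to a like extent in both RNA fractions. In total RNA 51 of 53 were lower and 1 was higher, where 28.6% of all genes tested were lower and 19.5% higher. The median change was -0.73 on the log2 scale over the members and -0.05 over all genes tested. In polysomal RNA the members again numbered 51 lower and 1 higher, against 24% and 21.9% of all genes tested (45.9% in either direction), with medians of -0.64 and -0.01. The 2 members outside the majority were the same in both fractions: LFNR2 was higher and LHCB4.3 passed the test in neither. With each library scaled to its nuclear fragments instead, 47 were lower and 2 higher in total RNA (median -0.52, all genes 0.13) and 48 and 2 in polysomal RNA (median -0.49, all genes 0.11). Without the second Col-0 total RNA library of T0, 50 were lower and 1 higher in total RNA.

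Medians of the change in total RNA by role were -0.90 for the major photosystem II antenna, -0.82 for the oxygen-evolving complex, -0.80 for the photosystem I antenna, -0.71 for other photosystem II subunits, -0.67 for the minor antenna, -0.63 for photosystem I subunits, -0.43 for electron carriers and -0.34 for the ATP synthase. All 6 photosystem I antenna genes and all 9 major photosystem II antenna genes were lower in both fractions, and 5 of the 6 minor antenna genes. LHCB2.3 (AT3G27690; TAIR10.1 chromosome 3, 10255906 to 10257489), a copy of the LHCB2 protein of the mobile trimers, had 1030, 1310 and 1160 FPKM in Col-0 total RNA and 402, 424 and 371 in dcp5-1. Its polysomal values were 2430, 2420 and 2380 FPKM in Col-0 and 827, 735 and 787 in dcp5-1. The groups did not overlap in either fraction. For LHCB2.3 the log2 change was -1.54 ± 0.07 in total RNA (limma adjusted p = 3.8e-13) and -1.62 ± 0.07 in polysomal RNA (limma adjusted p = 2.3e-13). LHCB1.2 (AT1G29910), 1 of 3 LHCB1 copies that lie side by side on chromosome 1 between 10472280 and 10479114, had 2450, 3370 and 2680 FPKM in Col-0 total RNA and 1080, 1170 and 1070 in dcp5-1. The LHCB1.2 change was -1.34 ± 0.08 in total RNA and -1.57 ± 0.08 in polysomal RNA (limma adjusted p = 1.6e-11 and 1.5e-12), and every dcp5-1 library was below every Col-0 library. LHCB1.5, the most abundant copy, with 11000, 15100 and 12100 FPKM in Col-0 total RNA against 6620, 6700 and 6450 in dcp5-1, changed by -0.94 ± 0.08, and LHCB1.3 by -0.75 ± 0.08. The LHCB1.2 share of LHCB1 was 6.51% in dcp5-1 and 8.98% in Col-0 total RNA, and the LHCB2.3 share of LHCB2 was 8.91% and 13.5%.

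In the photosystem I antenna, LHCA2 had the largest change at -1.06 ± 0.07 in total RNA. LHCA3 (AT1G61520) had 3040, 4230 and 3250 FPKM in Col-0 and 1740, 1760 and 1570 in dcp5-1, a change of -1.04 ± 0.08 (limma adjusted p = 9.1e-10), again without overlap. LHCA4 (AT3G47470) had 4540, 5400 and 4950 FPKM against 3010, 3170 and 3010, a change of -0.69 ± 0.06 (limma adjusted p = 3.4e-09). LHCA5 and LHCA6, low-abundance proteins that link the NDH complex to photosystem I, changed by -0.29 ± 0.05 and -0.41 ± 0.09. Among the minor antenna proteins, which connect the trimers to the photosystem II core, LHCB6 had 3700, 4340 and 3680 FPKM in Col-0 total RNA and 2080, 2230 and 2200 in dcp5-1 (-0.84 ± 0.06), and LHCB5 had 2460, 3310 and 2770 against 1780, 1810 and 1720 (-0.68 ± 0.07). LHCB4.3 had 13.9, 19.0 and 16.5 FPKM in Col-0 and 17.5, 17.8 and 17.4 in dcp5-1, overlapping, with a change of 0.10 ± 0.08 (limma adjusted p = 0.347). LHCB7 had 24.4, 24.9 and 25.3 FPKM in Col-0 and 17.1, 18.2 and 15.7 in dcp5-1, a change of -0.52 ± 0.08.

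**Figure D2:**
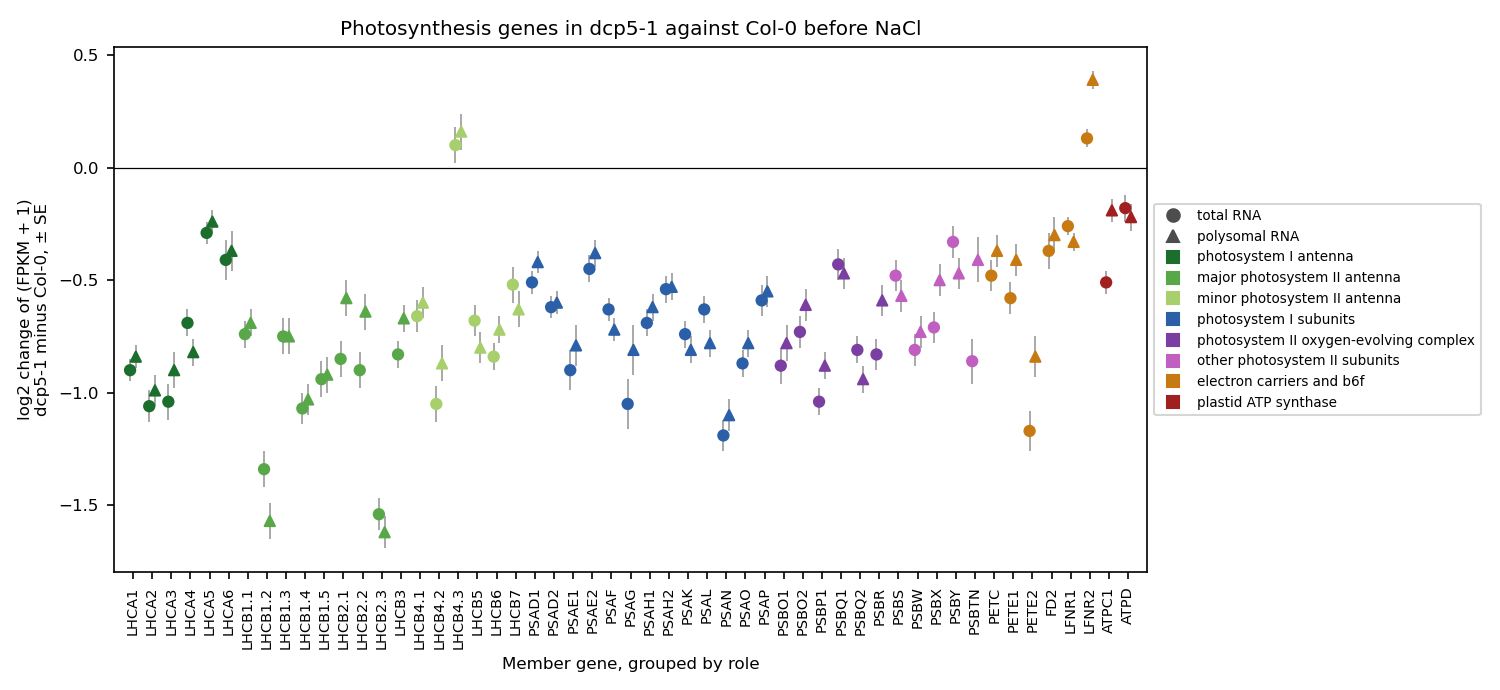
Log2 change of (FPKM + 1) in dcp5-1 against Col-0 at T0 for each member, circles for total RNA and triangles for polysomal RNA, with SE, coloured by role. All points lie below 0 except LHCB4.3 and LFNR2, and LHCB2.3 and LHCB1.2 lie lowest.

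All 13 photosystem I subunit genes were lower in both fractions, with a median of -0.63 in total RNA and -0.72 in polysomal RNA. PSAN, a lumenal subunit at the plastocyanin docking side, had the largest change at -1.19 ± 0.07 in total RNA, and PSAE2 the smallest at -0.45 ± 0.06. PSAH2, a subunit needed for docking of the mobile antenna, had 6110, 7130 and 6570 FPKM in Col-0 and 4440, 4470 and 4710 in dcp5-1, without overlap (-0.54 ± 0.06, limma adjusted p = 2e-07). PSAK had 6040, 6670 and 6120 FPKM against 3710, 3870 and 3640 (-0.74 ± 0.06, limma adjusted p = 4.1e-09). In photosystem II all 6 genes of the oxygen-evolving complex and all 5 other subunit genes were lower in both fractions. PSBR had 24900, 31500 and 27100 FPKM in Col-0 total RNA and 15900, 15500 and 15300 in dcp5-1 (-0.83 ± 0.07). PSBO1, the main manganese-stabilising protein, had 3720, 5280 and 4150 FPKM against 2400, 2370 and 2280 (-0.88 ± 0.08). PSBX, a small membrane subunit of the core, had 10100, 12100 and 10800 FPKM against 6300, 6820 and 6920 (-0.71 ± 0.07). For PSBTN, another small subunit, the values were 8450, 12000 and 10800 FPKM against 5860, 6140 and 5070 (-0.86 ± 0.10). In each of these the lowest Col-0 library was above the highest dcp5-1 library.

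Among the electron carriers and the ATP synthase 7 of 8 genes were lower in both fractions. PETE2, the major plastocyanin, had 5690, 8200 and 6540 FPKM in Col-0 total RNA and 2970, 2930 and 3060 in dcp5-1 (-1.17 ± 0.09, limma adjusted p = 1.1e-09). FD2, the main leaf ferredoxin, had 3220, 4150 and 3490 FPKM against 2830, 2720 and 2780 (-0.37 ± 0.08). LFNR1 had 329, 336 and 337 FPKM against 288, 284 and 266 (-0.26 ± 0.04). LFNR2 went the other way, with 79.9, 76.5 and 77.9 FPKM in Col-0 and 84.5, 85.1 and 86.5 in dcp5-1 total RNA (0.13 ± 0.04, limma adjusted p = 0.0227), and 144, 141 and 136 against 182, 191 and 180 in polysomal RNA (0.39 ± 0.04, limma adjusted p = 3.4e-07). The groups did not overlap, but the LFNR2 call in total RNA was lost without the third dcp5-1 library or without the second or the third Col-0 library (adjusted p = 0.0686, 0.059 and 0.0506), and in a fit of only the groups compared (limma adjusted p = 0.128). LFNR2 held 23.4% of LFNR FPKM in dcp5-1 total RNA and 19.0% in Col-0. ATPC1, the gamma subunit, had 341, 417 and 400 FPKM against 264, 270 and 277 (-0.51 ± 0.05). ATPD, the delta subunit, had 1380, 1740 and 1530 FPKM against 1380, 1370 and 1350. The ATPD groups overlapped at their edge, and its change of -0.18 ± 0.06 (limma adjusted p = 0.0226) was not called without the second or the third dcp5-1 library (adjusted p = 0.0506 and 0.0623) or without the second Col-0 library (-0.09, adjusted p = 0.152), and became 0.04 with nuclear scaling.

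Genes of green tissue outside the photosystems were also lower. Of 8 leaf and cotyledon mesophyll genes that are no members, 7 were tested and all 7 were lower in dcp5-1 total RNA at T0 (median -0.74), as in polysomal RNA (median -0.45). Their summed level ran from 31700 to 38300 FPKM in Col-0 total RNA and from 21800 to 22900 in dcp5-1, and RBCS1A, a gene for the small subunit of Rubisco, was listed at 0 in all libraries. Of 11 root-expressed genes 10 were tested, with 1 higher and 5 lower in total RNA and 3 higher and 3 lower in polysomal RNA, and their sum ran from 136 to 148 FPKM in Col-0 and from 117 to 128 in dcp5-1 total RNA. Whether a different share of green tissue plays a part in the members' lower values was not tested. In bulk RNA, fewer cells of a type and less RNA per cell cannot be told apart. Of 15 chlorophyll synthesis genes 12 were lower in total RNA, where 28.6% of all genes tested were, and 3 were not called, led by PORB, a protochlorophyllide reductase (-0.74 ± 0.06). Of 12 genes for light-harvesting regulation and cyclic flow 6 were lower and 3 higher, and of 13 for assembly and targeting 7 were lower and 1 higher. Of 22 chloroplast-encoded photosystem, b6f and ATP synthase genes tested, out of 32, 5 were lower and 17 were not called. Among 12 transcription factors of photosynthesis genes 4 were lower and 4 higher, with PIF4 at -0.67 ± 0.04 and the clock gene LHY at 0.96 ± 0.04 the genes of smallest p.

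After 15 min of NaCl the members remained mostly lower in dcp5-1, in the values as deposited by a smaller margin in total RNA. In total RNA 40 were lower and 4 higher, against 26.1% and 24% of all genes tested, with a median of -0.29 against -0.02. With nuclear scaling 47 were called in total RNA, 3 of them higher, and 50 and 3 after removal of the length and GC trend. In polysomal RNA 47 were lower and 2 higher, against 22.4% and 22.3%, with a median of -0.49 against -0.01. LHCB2.3 was again lowest in total RNA (-1.02 ± 0.07), with 1950, 1840 and 1950 FPKM in Col-0 and 903, 968 and 961 in dcp5-1. LHCB1.2 was lowest in polysomal RNA (-1.09 ± 0.08), with 6890, 7690 and 7620 FPKM in Col-0 and 3400, 3530 and 3460 in dcp5-1. The 4 members higher in total RNA were LHCB4.3 (0.62 ± 0.08), LHCB1.1 (0.17 ± 0.06), LHCA5 (0.15 ± 0.05) and LFNR2 (0.13 ± 0.04), and LHCB4.3 and LFNR2 were also higher in polysomal RNA, by 0.56 ± 0.08 and 0.37 ± 0.04. LHCB1.1 (AT1G29920) had 3300, 3220 and 3200 FPKM in Col-0 total RNA and 3500, 3670 and 3790 in dcp5-1 at T15, the reverse of its order at T0. Without the third dcp5-1 total RNA library of T15 only 1 member was higher in total RNA, and without the second or the third Col-0 total RNA library of T15 it was 2. Of the 7 mesophyll genes tested that are no members, 2 were lower and 1 was higher in total RNA at T15.

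In Col-0 total RNA, members moved in both directions under NaCl. Of 53, 14 rose and 27 fell, against 33.2% and 32.4% of all genes tested (65.7% in either direction), with a median of -0.19 against 0.01. This split depended on scaling and on transcript length: 23 rose and 20 fell with nuclear scaling (median 0.05, all genes 0.21), and 23 rose and 15 fell once the trend with transcript length and GC content was removed (median 0.03, all genes -0.04). Without the second library of T0, 18 rose and 24 fell. Across all genes with a known length, length and GC content accounted for 35.9% of the variance of this change. The calls below are those in the values as deposited. Of the 12 members with a coding length under 500 nt, a cut chosen after the values were seen, all fell (median -0.59). Of the 41 longer members 14 rose and 15 fell (median -0.11).

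Of the 9 major antenna genes 6 fell and 1 rose in Col-0 total RNA. LHCB1.1 went from 6560, 7800 and 6450 FPKM at T0 to 3300, 3220 and 3200 at T15, without overlap (-1.09 ± 0.06, limma adjusted p = 2.3e-12). LHCB1.5 went from 11000, 15100 and 12100 to 7810, 7410 and 7600 FPKM (-0.73 ± 0.08), LHCB1.3 from 7010, 9230 and 7380 to 4950, 4970 and 4960 (-0.66 ± 0.08), and LHCB1.2 from 2450, 3370 and 2680 to 1670, 1540 and 1620 (-0.80 ± 0.08). In the same family group LHCB2.3 rose, from 1030, 1310 and 1160 to 1950, 1840 and 1950 FPKM (0.72 ± 0.07, limma adjusted p = 2.3e-08), and its share of LHCB2 went from 13.5% to 22.0%. LHCB2.1 and LHCB2.2 did not pass the test, at -0.13 ± 0.08 and -0.15 ± 0.08. In the photosystem I antenna LHCA4 fell from 4540, 5400 and 4950 to 3430, 3340 and 3300 FPKM (-0.56 ± 0.06) while LHCA3 and LHCA2 rose, by 0.29 ± 0.08 and 0.21 ± 0.07. The LHCA2 groups overlapped. The LHCA3 groups did too, with 3040, 4230 and 3250 FPKM at T0 and 4430, 4150 and 4210 at T15. Of the minor antenna LHCB7 rose from 24.4, 24.9 and 25.3 to 44.5, 42.4 and 39.6 FPKM (0.74 ± 0.08), LHCB6 rose by 0.38 ± 0.06, and the other 4 were not called.

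Of the 13 photosystem I subunit genes 9 fell and 3 rose. PSAG had the largest fall (-0.92 ± 0.11) and PSAD1, which binds ferredoxin, the largest rise (0.35 ± 0.05). PSAK fell from 6040, 6670 and 6120 to 4730, 4530 and 3930 FPKM (-0.52 ± 0.06), and PSAH2 from 6110, 7130 and 6570 to 5890, 5660 and 5630 (-0.20 ± 0.06). After removal of the length and GC trend PSAK was at 0.08 and PSAH2 at 0.43, and with nuclear scaling PSAH2 was at 0.04, so their direction depended on the processing. In photosystem II, PSBX fell from 10100, 12100 and 10800 to 5280, 5030 and 5140 FPKM (-1.09 ± 0.07, limma adjusted p = 1.1e-11) and PSBR from 24900, 31500 and 27100 to 13700, 12800 and 12600 (-1.09 ± 0.07, limma adjusted p = 4.6e-12). PSBTN fell by 0.83 ± 0.10 on the log2 scale. PSBO1 and PSBO2, the larger extrinsic proteins, rose by 0.31 ± 0.08 and 0.38 ± 0.07. The PSBO1 groups overlapped, with 3720, 5280 and 4150 FPKM at T0 and 5620, 5100 and 5420 at T15. Among the carriers LFNR1 rose most of all members, from 329, 336 and 337 to 860, 807 and 797 FPKM (1.29 ± 0.04, limma adjusted p = 3.7e-16), and LFNR2 from 79.9, 76.5 and 77.9 to 97.7, 106 and 98.5 (0.36 ± 0.04). PETE2, PETE1 and FD2 fell, by 0.56, 0.43 and 0.47 on the log2 scale. ATPC1 rose from 341, 417 and 400 to 718, 694 and 688 FPKM (0.86 ± 0.05, limma adjusted p = 5.8e-12), and ATPD did not pass the test (-0.12 ± 0.06).

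**Figure D3:**
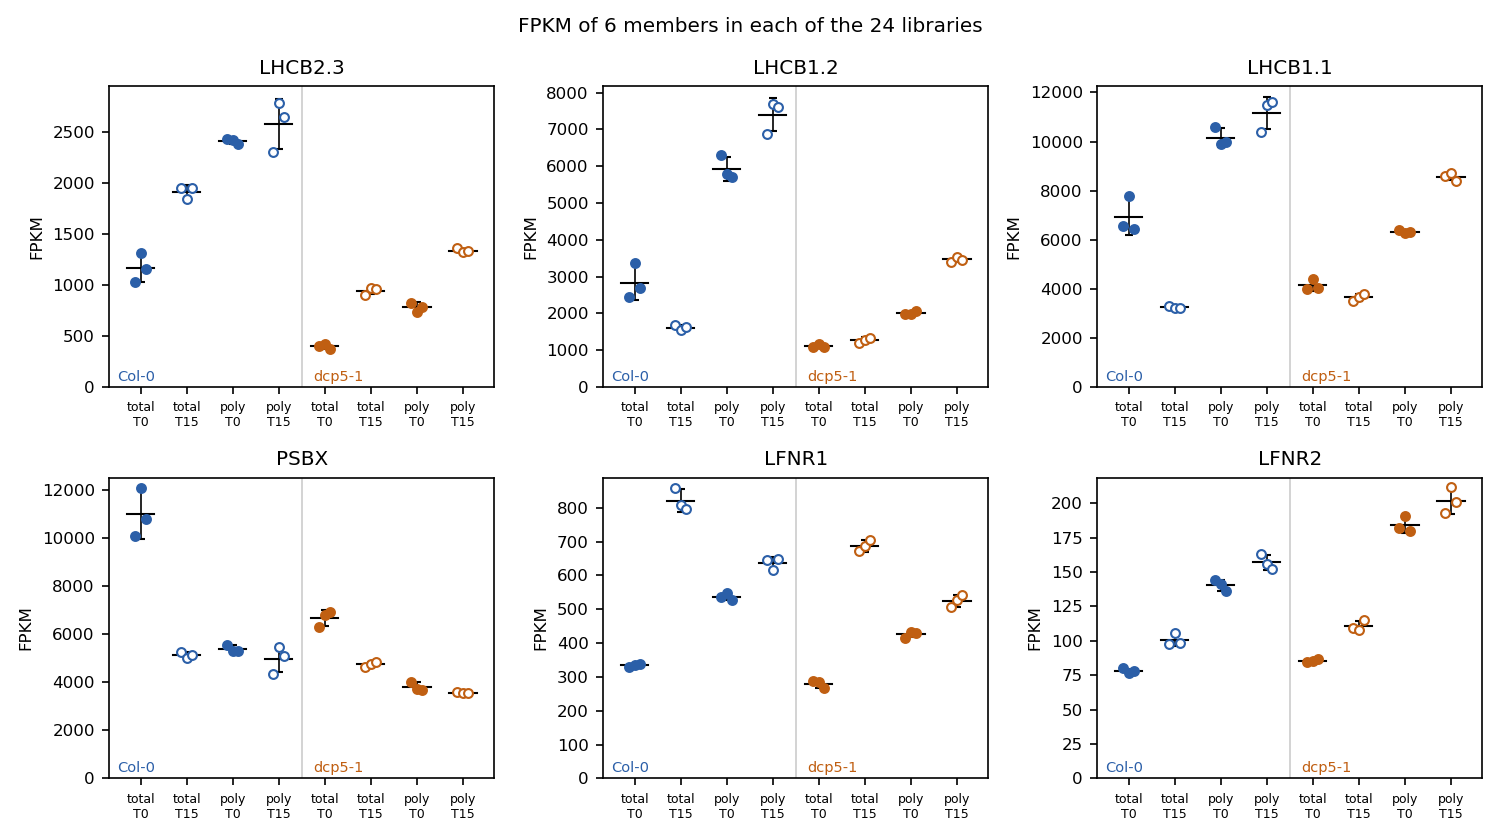
FPKM of LHCB2.3, LHCB1.2, LHCB1.1, PSBX, LFNR1 and LFNR2 in every library, Col-0 in blue and dcp5-1 in orange, filled points at T0 and open points at T15, with the mean and SD of each group of 3. In Col-0 total RNA LHCB1.1 and PSBX drop at T15, to between 3200 and 3300 and between 5030 and 5280 FPKM, while LFNR1 rises to between 797 and 860.

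In Col-0 polysomal RNA few members changed. Of 53, 8 rose and 1 fell, against 15.6% and 17.1% of all genes tested (32.7% in either direction), with a median of 0.03 against 0.00. The rises were LHCB1.2 (0.32 ± 0.08), LHCB1.4 (0.30 ± 0.07), LHCA4 (0.29 ± 0.06), LFNR1 (0.25 ± 0.04), ATPC1 (0.20 ± 0.05), PSAD1 (0.18 ± 0.05), LFNR2 (0.16 ± 0.04) and PSBQ2 (0.15 ± 0.06), and the fall was PSBS (-0.23 ± 0.07), the sensor of non-photochemical quenching. LHCB1.1, which fell in total RNA, had 10600, 9890 and 10000 FPKM at T0 and 10400, 11500 and 11600 at T15 in polysomal RNA (0.13 ± 0.06, limma adjusted p = 0.125). PSBX had 5570, 5310 and 5290 FPKM at T0 and 4360, 5480 and 5110 at T15 (-0.12 ± 0.07, limma adjusted p = 0.216). Both pairs of groups overlapped. The counts were 13 and 4 with nuclear scaling, 24 and 1 after removal of the length and GC trend, and 12 and 5 without the second total RNA library of T0, which enters this fit only through the shared estimate of spread. No member fell without the first polysomal library of T15, and 2 to 4 fell without the first total RNA library of T0, the third polysomal library of T0 or the third polysomal library of T15.

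In dcp5-1 more members rose than fell under NaCl. In total RNA 28 rose and 7 fell, against 29.0% and 26.8% of all genes tested (55.7% in either direction), with a median of 0.20 against 0.01. In polysomal RNA 29 rose and 0 fell by limma, against 17.2% and 15.5%, with a median of 0.21 against 0.00, and at an unadjusted p below 0.05 34 rose and 0 fell. The scaling to nuclear fragments gave 31 and 8 in total RNA and 26 and 2 in polysomal RNA. Once the trend with transcript length and GC content was taken out, 39 rose and 4 fell in total RNA and 38 and 0 in polysomal RNA. All 9 major antenna genes rose in polysomal RNA, and in total RNA 5 rose and 2 fell. LHCB2.3 went from 402, 424 and 371 to 903, 968 and 961 FPKM in total RNA (1.24 ± 0.07, limma adjusted p = 6.1e-12) and from 827, 735 and 787 to 1360, 1320 and 1330 in polysomal RNA (0.77 ± 0.07, limma adjusted p = 5.8e-08), without overlap. LHCB1.2 went from 1990, 1970 and 2050 to 3400, 3530 and 3460 FPKM in polysomal RNA (0.79 ± 0.08), and from 1080, 1170 and 1070 to 1200, 1280 and 1340 in total RNA (0.20 ± 0.08). LHCB1.1 fell slightly in total RNA, from 3980, 4400 and 4020 to 3500, 3670 and 3790 FPKM (-0.18 ± 0.06, limma adjusted p = 0.0239), and rose in polysomal RNA, from 6380, 6260 and 6320 to 8580, 8700 and 8410 (0.44 ± 0.06).

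All 6 minor antenna genes rose in dcp5-1 total RNA, with LHCB7 at 1.07 ± 0.08 and LHCB6, from 2080, 2230 and 2200 to 3830, 4090 and 4190 FPKM, at 0.89 ± 0.06. LHCA3 rose from 1740, 1760 and 1570 to 2880, 2870 and 3080 FPKM (0.80 ± 0.08) and LHCA4 fell from 3010, 3170 and 3010 to 2210, 2290 and 2490 (-0.40 ± 0.06). Of the 13 photosystem I subunit genes 4 rose and 1, PSAE2, fell. PSBP1, PSBO1, PSBO2 and PSBQ2 of the oxygen-evolving complex rose, by 0.35 to 0.75, and PSBR fell (-0.38 ± 0.07). PSBX fell from 6300, 6820 and 6920 to 4640, 4770 and 4830 FPKM (-0.49 ± 0.07). LFNR1 rose from 288, 284 and 266 to 671, 687 and 705 FPKM (1.3 ± 0.04, limma adjusted p = 5.1e-16) and ATPC1 from 264, 270 and 277 to 529, 541 and 548 (0.99 ± 0.05).

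**Figure D4:**
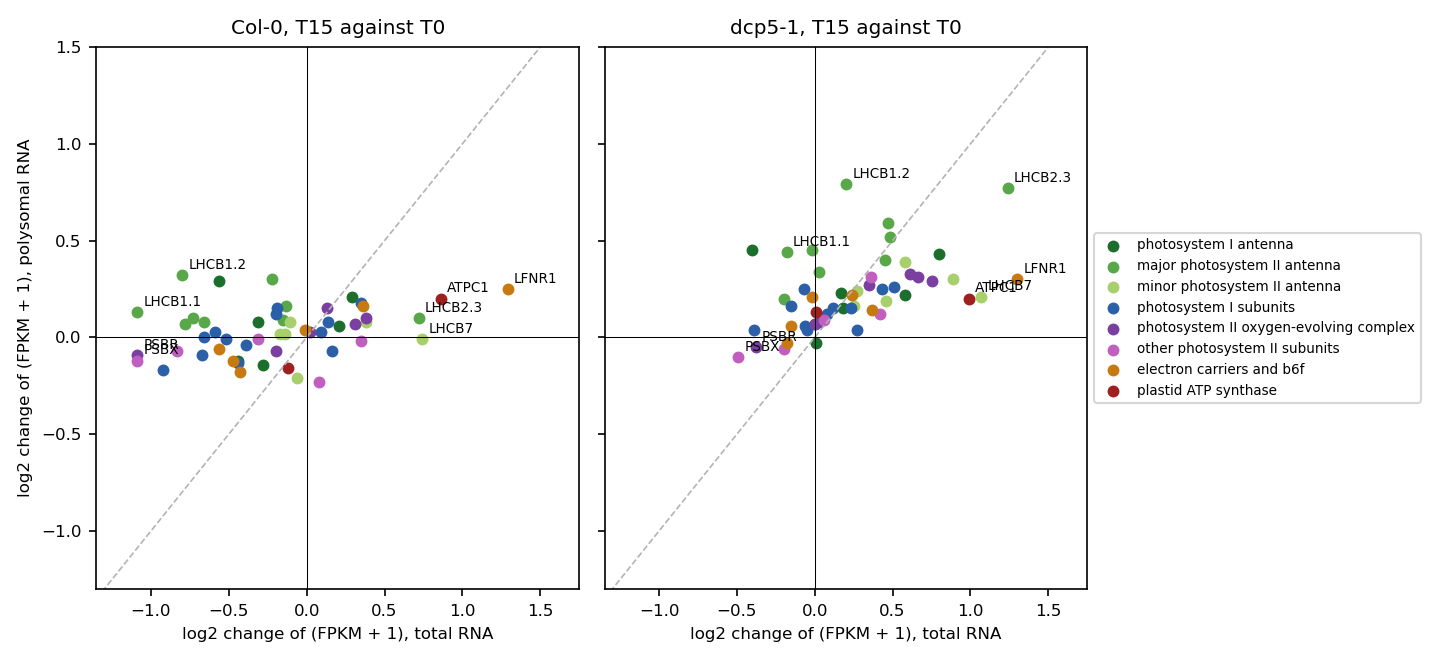
Log2 change of (FPKM + 1) from T0 to T15 in total RNA (x axis) and polysomal RNA (y axis) for the 53 members in Col-0 and dcp5-1, coloured by role; the dashed line marks equal change. In Col-0 the points spread from -1.09 to 1.29 in total RNA but only from -0.23 to 0.32 in polysomal RNA; in dcp5-1 the polysomal changes reach 0.79.

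The NaCl change in total RNA differed between genotypes for most members. The difference, the change in dcp5-1 minus that in Col-0, was positive and called by limma for 41 of 53 members and negative for 0 (45 and 0 at an unadjusted p below 0.05), against 16.9% and 8.34% of all genes tested. The median was 0.39 over the members and 0.02 over all genes tested. With nuclear scaling 29 were positive and 3 negative (median 0.17, all genes -0.16), 34 and 0 after removal of the length and GC trend, and without the second Col-0 total RNA library of T0 36 and 0. All 9 major and all 6 minor antenna genes were among the 41. The largest differences were those of LHCB1.2 (1.00 ± 0.12, limma adjusted p = 3e-06), whose change was 0.20 ± 0.08 in dcp5-1 and -0.80 ± 0.08 in Col-0, and LHCB1.1 (0.92 ± 0.09, limma adjusted p = 4.5e-07), with -0.18 ± 0.06 and -1.09 ± 0.06. PSAG followed at 0.85 ± 0.15, LHCB4.2 at 0.75 ± 0.11, and LHCB1.5 and PSBR at 0.71 ± 0.11 and 0.71 ± 0.09. The NaCl changes of LFNR1 and LFNR2 were nearly equal in the genotypes, with differences of 0.00 ± 0.06 and 0.01 ± 0.06 (limma adjusted p = 0.987 and 0.96), as was that of PSBY at 0.01 ± 0.09. With nuclear scaling LFNR1 and LFNR2 were at -0.22 and -0.21. All 7 mesophyll genes that are no members also had a positive difference (median 0.74), and so did 7 of the 10 root-expressed genes tested (median 0.44).

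In polysomal RNA the difference was positive for 12 members and negative for 0 by limma (18 and 0 at an unadjusted p below 0.05), against 6.49% and 4.45% of all genes tested, with a median of 0.16 against 0.01. Among those called LHCB2.3 had the largest value (0.68 ± 0.11, limma adjusted p = 0.00021), followed by LHCB1.2 (0.47 ± 0.12) and LHCB4.3 (0.40 ± 0.12). This count rested on single libraries: without 1 library it lay between 3, without the first Col-0 polysomal library of T15, and 20, without the second Col-0 total RNA library of T0. Without the second or the third dcp5-1 polysomal library of T0 it was 5 in both cases, without the first, the second or the third dcp5-1 polysomal library of T15 it was 6, 5 and 4, and without the first Col-0 polysomal library of T0 it was 5.

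The difference between polysomal and total RNA varied widely among members, and longer members had higher values. In Col-0 at T0, 29 members were higher in polysomal than in total RNA and 19 were lower, against 35.3% and 36.0% of all genes tested (71.3% in either direction). All 12 members with a coding length under 500 nt were lower, with a median of -0.80, whereas of the 41 longer members 29 were higher and 7 lower, with a median of 0.43. The cut of 500 nt was chosen after the values were seen. Coding length ran from 351 nt in PSBX to 1122 nt in ATPC1, and its Spearman correlation with the polysomal difference was 0.79 over the 53 members in Col-0 and 0.79 in dcp5-1, which share no library but the same genes and length scaling. Over all genes with a known length, transcript length and GC content accounted for 40.2% of the variance in Col-0 at T0. With that trend removed 32 members were higher and 13 lower, and with nuclear scaling 29 and 22. Leaving out the second Col-0 total RNA library of T0 gave 29 higher and 15 lower. In Col-0 at T15 27 members were higher and 15 lower in polysomal RNA, against 31.6% and 29.8% of all genes tested and 61.3% in either direction (20 and 27 with nuclear scaling). In dcp5-1 28 were higher and 16 lower at T0, against 34.9% and 36.3%, and 23 and 17 at T15, against 33.6% and 32.8% (18 and 27 with nuclear scaling). Nuclear scaling divides all nuclear genes of a library by 1 factor. At T15 the factors were 0.894 to 0.928 in total RNA and 1.04 to 1.12 in polysomal RNA. Polysomal values are thus lowered against total RNA in members and other nuclear genes alike.

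By role, all 9 major antenna genes were higher in polysomal RNA, LHCB1.3 most, with 7010, 9230 and 7380 FPKM in total and 22000, 20600 and 20500 in polysomal RNA (1.43 ± 0.08, limma adjusted p = 1.8e-13). ATPC1, with 902, 897 and 885 FPKM in polysomal RNA, was 1.21 ± 0.05 higher than in total RNA. Of the 13 photosystem I subunit genes 11 were lower, PSAE1 most, with 4200, 5840 and 4720 FPKM in total and 2090, 2130 and 2080 in polysomal RNA (-1.21 ± 0.09, limma adjusted p = 7.1e-11), and PSAD1 and PSAF were higher. PSBR, PSBTN and PSBX were lower by 1.09, 1.03 and 1.02 on the log2 scale. Members of equal coding length still differed: LHCB1.1, LHCB1.2 and LHCB1.3, all of 804 nt, stood at 0.56 ± 0.06, 1.08 ± 0.08 and 1.43 ± 0.08, although their near-identical sequences make the single values uncertain. After removal of the length and GC trend PSAK stood at 0.28 and ATPD at 0.20, both higher in polysomal RNA, PSBO1 at -0.07 and FD2 at 0.05.

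**Figure D5:**
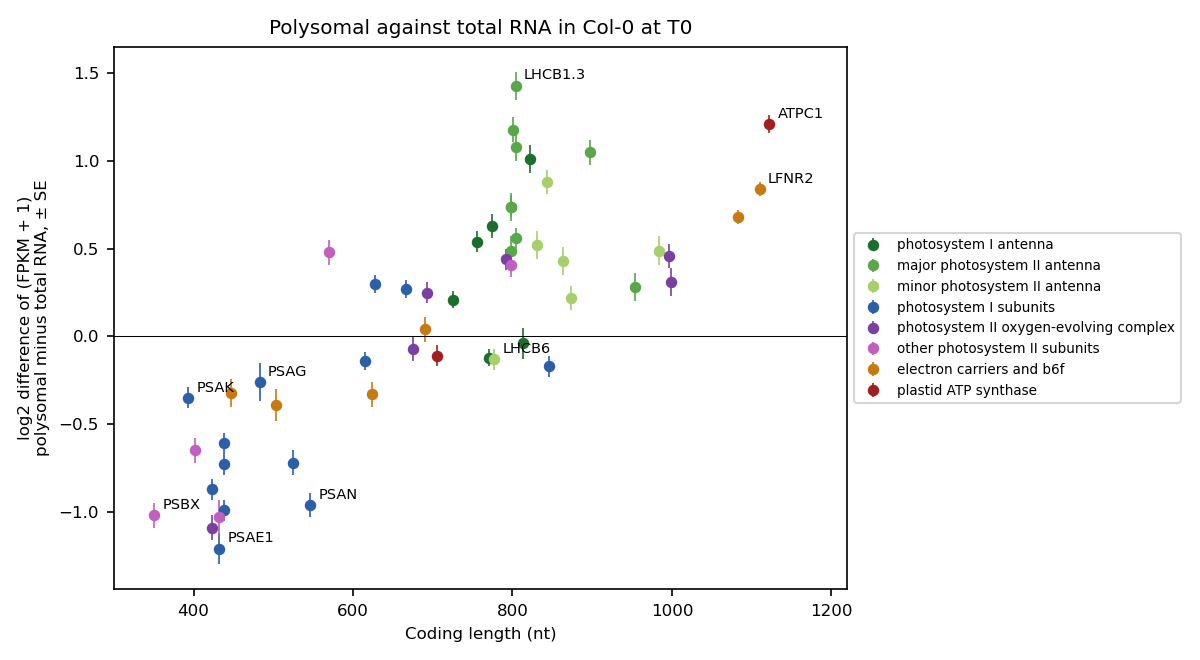
Log2 difference of (FPKM + 1) between polysomal and total RNA in Col-0 at T0 (y axis, with SE) against coding length in nt (x axis) for the 53 members, coloured by role. The 12 members under 500 nt all lie below 0, and the major antenna genes all lie above 0, up to LHCB1.3 at 1.43.

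Polysome association, the change in polysomal RNA minus the change in total RNA, moved with NaCl in Col-0 for 35 members. It rose for 25 and fell for 10, against 22.8% and 21.5% of all genes tested (44.3% in either direction), with a median of 0.24 against 0.00. With nuclear scaling 18 rose and 21 fell (median 0.02, all genes -0.19), and after removal of the length and GC trend 15 rose and 17 fell, so the balance of directions depended on the processing. Leaving out the second Col-0 total RNA library of T0 gave 23 that rose and 14 that fell. LHCB1.1 rose most (1.23 ± 0.09, limma adjusted p = 8.5e-10), followed by LHCB1.2 (1.12 ± 0.12), PSBR (0.99 ± 0.09) and PSBX (0.97 ± 0.10). LFNR1 fell most (-1.05 ± 0.06, limma adjusted p = 3.1e-11), then LHCB7 (-0.75 ± 0.11), ATPC1 (-0.66 ± 0.08) and LHCB2.3 (-0.62 ± 0.11). The T15 difference between polysomal and total RNA in Col-0 reached 2.2 for LHCB1.2 and -0.63 for PSAE1, and the correlation with coding length was 0.50.

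In dcp5-1 association rose for 9 members and fell for 14, against 12.3% and 14.0% of all genes tested, with a median of 0.03 against 0.00. The counts were 9 and 20 with nuclear scaling, 6 and 23 once the length and GC trend was taken out, and 14 and 16 in a fit of only the groups compared. LHCA4 rose most (0.85 ± 0.08; 0.85 ± 0.08 in Col-0), and LFNR1 fell most (-1.0 ± 0.06). The difference between genotypes was negative for 6 members and positive for 0 by limma (19 and 1 at an unadjusted p below 0.05), against 4.3% and 1.95% of all genes tested (6.25% in either direction): PSBR (-0.67 ± 0.13), LHCB1.1 (-0.61 ± 0.13), PSBX (-0.58 ± 0.14), PSAN (-0.57 ± 0.15), LHCB3 (-0.46 ± 0.12) and LHCA5 (-0.36 ± 0.11). With nuclear scaling 7 were negative and 2 positive, and without the first Col-0 total RNA library of T0 the count was 16. Before NaCl the genotypes differed in association for 3 members, with 3 higher and 0 lower in dcp5-1 by limma (8 and 0 at an unadjusted p below 0.05), against 7.73% of all genes tested higher and 3.14% lower: PSBTN (0.45 ± 0.14), ATPC1 (0.31 ± 0.08) and LFNR2 (0.26 ± 0.06). With nuclear scaling 4 were higher and 4 lower. Without the first Col-0 total RNA library of T0 9 were higher and 0 lower, and without the second 2 were higher and 3 lower, so the direction rested on that library. After NaCl 14 were lower and 1 higher in dcp5-1, against 5.31% and 7.48%, with LHCB1.2 at -0.75 ± 0.12, LHCB1.1 at -0.55 ± 0.09 and LFNR2, the member that was higher, at 0.23 ± 0.06. With nuclear scaling 15 were lower and 4 higher. The 14 lower members became 8 without the third dcp5-1 total RNA library or the third Col-0 polysomal library of T15, and 9 without the first dcp5-1 or the second Col-0 polysomal library of T15. No member was higher without the second dcp5-1 polysomal, the second Col-0 total RNA or the third Col-0 polysomal library of T15, and 2 were without the first Col-0 total RNA library of T0.

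Counts for other genes of the pathway under NaCl stand beside 33.2% of all genes tested that rose and 32.4% that fell in Col-0 total RNA. There 12 of 15 chlorophyll synthesis genes rose and 2 fell (median 0.50), led by CHLD, a subunit of magnesium chelatase (1.16 ± 0.05), and CHLM, the methyltransferase that follows it, which fell (-0.27 ± 0.06). Of 12 genes for light-harvesting regulation and cyclic flow 5 rose and 6 fell, with ZEP, zeaxanthin epoxidase, at 1.31 ± 0.04 and PGR5, a protein of cyclic electron flow, at -1.49 ± 0.06. Of 13 assembly and targeting genes 8 rose and 5 fell, and of 12 transcription factors 3 rose and 7 fell. Of the 22 chloroplast-encoded genes tested 10 fell and 12 were not called, with psbA, the D1 reaction-centre protein, at -0.88 ± 0.15. In polysomal against total RNA of Col-0 at T0, 14 of 15 chlorophyll synthesis genes were higher (median 1.23) and 1, GUN4, was lower, against 35.3% and 36.0% of all genes tested. The difference of NaCl responses in total RNA was positive for 6 and negative for 2 chlorophyll synthesis genes, 7 and 1 of the regulation and cyclic flow genes, and positive for 4 of the 13 assembly genes, against 16.9% and 8.34% of all genes tested.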

How the data were processed

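The authors deposited 1 table of FPKM for 38088 genes in 24 libraries. Reads were aligned with Bowtie to TAIR10, per the submitters' processing notes; the sources used here do not give the counter, annotation or versions. The unit was inferred from the values: at 1 length offset per library, 98.6% to 99.4% of low values came out as whole fragments, with a tolerance of 0.1. Column suffix IP was read as polysomal RNA, since the labels' other fraction is the input, and column numbers match no replicate label. The denominators this gives, 14580000 to 19070000, are not the library totals: nuclear genes of at least 300 nt hold 17415550 to 18488706 fragments per library, so the deposited FPKM carry a further library factor that the sources used here do not give. Between 19026 and 19579 genes reached 1 FPKM.

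As planned for a table of FPKM, log2(FPKM + 1) was fitted with limma 3.58.1 (R 4.3.3; trended and robust empirical Bayes, 1 mean per group, 16 residual degrees of freedom) over all 24 libraries and 20964 genes with at least 1 FPKM in at least 3 libraries, in 19 comparisons, and p-values were adjusted by Benjamini-Hochberg over all genes tested, with a threshold of 0.05. Fold changes on this scale understate those of low genes. The median SE was 0.087 for a comparison of 2 groups, 0.123 for 4 and 0.175 for 8. The fit was first tested on simulated data with known fold changes. Samples were grouped by their labels. The members and the gene lists were chosen with earlier results of these data known. Per-library values are given for 22 members: by role the 2 of highest mean FPKM, and the 2 largest called changes in each direction in 7 comparisons; further members are named by their change, and of other lists only the gene of smallest p in each direction. Gene positions, lengths and promoters come from RefSeq TAIR10.1, which matched 99.2% of identifiers. Nuclear scaling leaves out 296 organelle-encoded genes and scales each library to its nuclear fragments, and was chosen after seeing the data. Other alternatives were a pseudocount of 0.1, no filter, median-of-ratios scaling, removal of a trend on transcript length and GC content, a fit of only the groups compared, a replicate block and each library left out. Python 3.11.15 with numpy 2.4.6, pandas 2.3.3, scipy 1.17.1 and Biopython 1.88 was used for tables, sequences and figures.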

Additional observations from a re-analysis of the deposited data

Results flagged for a closer look

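The results below stand out because the response to NaCl differed between Col-0 and dcp5-1 by a test of the difference itself, the interaction of genotype and time in limma at an adjusted p below 0.05. In total RNA this held for 41 of 53 members, against 25.2% of all genes tested. Fewer members were called there with nuclear scaling, as given above. Among the members described by library, the difference (dcp5-1 minus Col-0, log2 scale) was 1.00 for LHCB1.2, 0.92 for LHCB1.1, 0.71 for LHCB1.5 and 0.68 for LHCB1.3. It was 0.52 for LHCB2.3, 0.52 for LHCB6, 0.39 for LHCB5 and 0.33 for LHCB7 in the rest of the photosystem II antenna. In photosystem I it was 0.51 for LHCA3, 0.46 for PSAK and 0.28 for PSAH2. In photosystem II it was 0.71 for PSBR, 0.63 for PSBTN, 0.60 for PSBX and 0.35 for PSBO1, and among the carriers 0.55 for PETE2 and 0.32 for FD2.

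In polysomal RNA the difference was called for 12 members, against 10.9% of all genes tested, and for 3 to 20 with 1 library left out. Among the 12 were LHCB2.3 at 0.68, LHCB1.2 at 0.47, LHCB1.5 at 0.35, LHCB1.1 at 0.31 and ATPD at 0.28. In polysome association it was called for 6 members, against 6.25% of all genes tested, and for 4 to 16 with 1 library left out. Among the 6 were PSBR at -0.67, LHCB1.1 at -0.61 and PSBX at -0.58.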

How the results depend on the processing

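No count of members called moved by more than 1.5 times with a pseudocount of 0.1, without the filter, with median-of-ratios scaling or with the replicate block. In 4 comparisons it did under another setting. For NaCl in Col-0 polysomal RNA the count of 9 became 17 with nuclear scaling and 25 after removal of the length and GC trend. For association between genotypes at T0 the count of 3 became 8 with nuclear scaling, 8 with the trend removed and 1 in a fit of only the groups compared. The difference of responses in polysomal RNA went from 12 to 19 in a fit of only the groups compared, and that in association from 6 to 10 with the trend removed. Leaving out 1 library at a time gave 8 to 17 members for NaCl in Col-0 polysomal RNA, 2 to 9 for association between genotypes at T0, 8 to 19 at T15, 3 to 20 for the difference of responses in polysomal RNA and 4 to 16 in association. The genotype counts at T0 stayed between 50 and 52 in total RNA and at 52 in polysomal RNA.

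Among the 22 members described by library, directions called in the reported or the alternative fit reversed with nuclear scaling or removal of the length and GC trend and under no other alternative run; 126 values called in neither changed sign under some alternative. With nuclear scaling, NaCl in Col-0 total RNA was 0.13 for LHCB5, 0.04 for PSAH2 and 0.12 for ATPD, the genotype change at T0 in total RNA was 0.04 for ATPD, and the difference of responses in total RNA was -0.22 for LFNR1 and -0.21 for LFNR2. With the trend removed, NaCl in Col-0 total RNA was 0.43 for PSAH2, 0.08 for PSAK and 0.14 for ATPD, and in dcp5-1 total RNA 0.32 for PSAK. The NaCl change in association was then -0.20 in Col-0 and -0.24 in dcp5-1 for PSAH2, and polysomal against total RNA in Col-0 at T0 was 0.28 for PSAK, -0.07 for PSBO1, 0.05 for FD2 and 0.20 for ATPD. The cause was not tested.

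Column numbers did not pair the libraries: correlations of same-numbered libraries ran from -0.17 to 0.15, and 5 of 24 libraries correlated best with their own number. With the number as a replicate block the difference of responses in polysomal RNA was called for 10 members, and the LHCB1.5 call there was lost (0.35, limma adjusted p = 0.0522). Rescaling to the same FPKM sum without organelle genes was not run as planned, since genes under 300 nt hold between 7.3% and 66.9% of the nuclear FPKM sum, and nuclear scaling took its place. LHCB4.3, at 250 fragments in its lowest library, is the member that depth limits most.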
